A study of Homo sapiens with 8 samples.

Results

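Interferon-stimulated genes (ISGs) were followed in breast epithelial cells that overexpressed the long non-coding RNA MALINC1. The genes were taken by symbol from a list of 46, of which 40 have a row among the 13842 genes of the deposited expression table. That list was drawn up with earlier results of these data known, so shares of ISGs beside shares of all genes are descriptive only. HERC5, MX1, MX2, RSAD2, CMPK2 and XAF1 are not analysed here. RNA-seq had been performed on MCF10A, a human breast epithelial line that does not form tumours, and on a related line used as a model of ductal carcinoma in situ, DCIS.COM. Each line had been stably transduced with either pLOC-empty or pLOC-MALINC1 and selected with blasticidin (10 µg/ml), so that the control cells carried the vector and had passed the selection too. There were 2 libraries in each of the 4 groups and 8 in all. MCF10A cells were grown with 5% horse serum plus EGF, hydrocortisone, insulin and cholera toxin, whereas DCIS.COM cells were grown with 5% horse serum and none of those supplements, so line and medium cannot be told apart. No label names an interferon treatment. The labels do not say whether the 2 libraries of a group came from separate cultures, and the p-values below measure the spread between these libraries only, which may be technical.

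Type I and type III interferons bind receptors whose kinases, JAK1 and TYK2, phosphorylate STAT proteins such as STAT2. With IRF9 these form the ISGF3 complex, which binds the interferon-stimulated response element (ISRE) in the promoters of ISGs, while type II interferon acts mostly at gamma-activated sites (GAS). The proteins made from ISGs sense viral RNA, block virus entry, translation or release, modify other proteins with ISG15 or ADP-ribose, or adjust the pathway itself. Many ISGs are also transcribed at a low level in epithelial cells to which no interferon has been added.

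Many promoters of these genes hold the ISRE core, which was not itself used in the choice by symbol. ISGs are known for this element, so its share is no independent evidence about the list. The core of the ISRE was searched as GAAANNGAAA on both strands of the RefSeq promoter window (GRCh38.p14), 300 bases long, from 250 before to 50 after the gene's start. It was found in 23 of the 31 ISGs with a promoter entry (74.2%), against 421 of the 10704 measured genes with one (3.93%) and 3.57% of all 35116 promoters. The GAS motif, TTCNNNGAA, was found in 11 of the 31 (35.5%), against 8.51% of the measured genes and 7.66% of all promoters, and some of its matches overlap an ISRE core. UBA7, USP18, IFIT2, IFITM2, OAS2, OASL, DHX58, IRF7 and TRIM22 had no promoter entry that could be matched. The promoter stretches printed here are 180 bases each, from 170 before to 10 after the start. They belong to IFI44L, called in both lines, to IFIT1, IFITM1, EPSTI1 and BST2, whose response differed between the lines, and to OAS1. The response of IFITM3 also differed and its window holds the core, but its stretch is not printed. OAS1 is printed as a gene without the core in its whole window. Capitals mark the ISRE core.
IFI44L (chr1:78620278-78620457, plus strand): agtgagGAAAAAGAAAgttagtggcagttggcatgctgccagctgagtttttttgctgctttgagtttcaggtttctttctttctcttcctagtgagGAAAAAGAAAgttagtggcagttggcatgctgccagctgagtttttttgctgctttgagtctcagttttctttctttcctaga
IFIT1 (chr10:89392453-89392632, plus strand): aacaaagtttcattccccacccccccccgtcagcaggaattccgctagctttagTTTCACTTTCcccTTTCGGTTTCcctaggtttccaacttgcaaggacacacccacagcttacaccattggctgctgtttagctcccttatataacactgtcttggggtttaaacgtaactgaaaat
IFITM1 (chr11:313870-314049, plus strand): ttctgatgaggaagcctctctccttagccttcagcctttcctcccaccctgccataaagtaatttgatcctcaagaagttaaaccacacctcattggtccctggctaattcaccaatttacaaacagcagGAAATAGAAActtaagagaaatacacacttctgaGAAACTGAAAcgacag
EPSTI1 (chr13:42992232-42992411, minus strand): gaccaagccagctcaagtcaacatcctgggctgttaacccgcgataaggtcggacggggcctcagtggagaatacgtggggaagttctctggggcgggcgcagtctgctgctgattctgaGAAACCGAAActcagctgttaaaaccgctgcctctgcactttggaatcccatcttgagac
BST2 (chr19:17405621-17405800, minus strand): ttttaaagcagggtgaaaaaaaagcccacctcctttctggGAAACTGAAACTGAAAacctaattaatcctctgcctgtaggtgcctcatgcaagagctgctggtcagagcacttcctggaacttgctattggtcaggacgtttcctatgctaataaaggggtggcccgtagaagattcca
OAS1 (chr12:112906792-112906971, plus strand): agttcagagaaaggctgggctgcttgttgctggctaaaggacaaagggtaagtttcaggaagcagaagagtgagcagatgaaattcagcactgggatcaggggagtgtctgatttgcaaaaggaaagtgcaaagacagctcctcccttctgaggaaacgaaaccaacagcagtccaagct

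The core stands at -164 and -73 from the start in IFI44L, at -116 and -103 in IFIT1, at -40 and -6 in IFITM1, at -50 in EPSTI1, and at -130 and -124, overlapping itself, in BST2. The 2 copies in IFI44L lie in an exact repeat of 85 bases that begins at -189 and again at -98. HERC6, OAS1, STAT2, IRF1, IRF9, SP100, IFI35 and SAMD9L had no match to this core in their windows, which says only that these letters are not there. The printed OAS1 stretch holds gaaacgaaa, in which the GAAA parts stand closer together than the search required, so it was not counted. Both directions of response to MALINC1 occurred with the core and without it. Of the 23 ISGs with it, 7 were higher, 6 lower and 10 not past an adjusted p of 0.01 in MCF10A, and the same counts, 7, 6 and 10, were found in DCIS.COM. Of the 8 without it, 1 was higher, 3 were lower and 4 did not pass in each of the lines. Over all genes, 21.5% were higher and 18.1% lower in MCF10A, and 16.4% and 16.7% in DCIS.COM. Whether the response goes with the core was not tested.

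Between 20604377 and 37550457 reads per library fell on genes, and the pLOC-MALINC1 libraries of each line were on average the deeper ones. Levels are given as normalized CPM (reads scaled to the size of the library), from the deposited log2 values after removal of their prior count. MALINC1 itself was at 1.0 and 1.51 CPM in MCF10A with pLOC-empty and at 13.2 and 11.7 CPM with pLOC-MALINC1. In DCIS.COM it was at 1.35 and 1.15 against 24.5 and 19.2 CPM. All 8 libraries thus went with their vector labels, while the level of MALINC1 does not check the label of the line. All 12 epithelial markers were measured, their summed level lying at 21914 to 22084 CPM (MCF10A empty), 29270 to 29973 (MCF10A MALINC1), 8571 to 8664 (DCIS.COM empty) and 8672 to 8784 CPM (DCIS.COM MALINC1). Of 14 leukocyte markers only CD14 and CD68 have a row, with a summed level of 14.0 to 14.3 CPM (MCF10A empty), 12.9 to 13.7 (MCF10A MALINC1), 4.11 to 4.20 (DCIS.COM empty) and 7.89 to 8.13 CPM (DCIS.COM MALINC1). Of 12 fibroblast and endothelial markers only COL1A1 and PECAM1 have one, with summed levels in the same order of 16.1 to 16.8, 7.29 to 8.19, 8.07 to 9.12 and 1.68 to 1.69 CPM. With MALINC1, CD14 and CD68 rose (log2 0.71 and 0.96) and PECAM1 fell in DCIS.COM, and COL1A1 fell in MCF10A. The response of CD68 also differed between the lines (1.27, adjusted p = 1.34e-05), and the part of these shifts in the ISG results was not tested. In bulk RNA, fewer expressing cells and less RNA per cell cannot be told apart.

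The question put to each line was which ISGs differ between pLOC-MALINC1 and pLOC-empty. One limma model was fitted to the log2 values of all 13842 genes. A gene is said to have risen or fallen when its Benjamini-Hochberg adjusted p was below 0.01, and to be called when it also changed by more than 2-fold. Groups without overlap are described below, but with 2 libraries each this carries little weight. IFIT1 in MCF10A, for example, did not overlap at an adjusted p of 0.224. The share of all genes without overlap was not computed. In MCF10A, 0 of the 40 ISGs were called higher and 1 was called lower (IFI44L), where 2.99% and 2.51% of all genes were. In DCIS.COM, 1 was called higher (EPSTI1) and 5 were called lower (IFI44L, IFIT1, IFI27, IFITM1 and TRIM22), that is 2.5% and 12.5% of the ISGs against 1.44% and 3.08% of all genes. At any fold the ISGs split almost evenly. In MCF10A 8 rose and 11 fell, 20% and 27.5% of them against 21.5% and 18.1% of all genes, and in DCIS.COM 9 rose and 10 fell, 22.5% and 25% against 16.4% and 16.7%. These counts moved with the libraries and the fit. Leaving out replicate 1 or 2 of MCF10A empty or replicate 2 of MCF10A MALINC1 brought the ISGs that fell in MCF10A to 4, 5 and 5, leaving out replicate 1 of DCIS.COM empty or replicate 2 of DCIS.COM MALINC1 brought those that rose in DCIS.COM to 4 and 3, and leaving out replicate 2 of DCIS.COM empty brought those that fell there to 6. The median log2 fold change over the 40 was -0.14 in MCF10A and -0.02 in DCIS.COM, where over all genes it was 0.00 and 0.01.

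**Figure D1:**
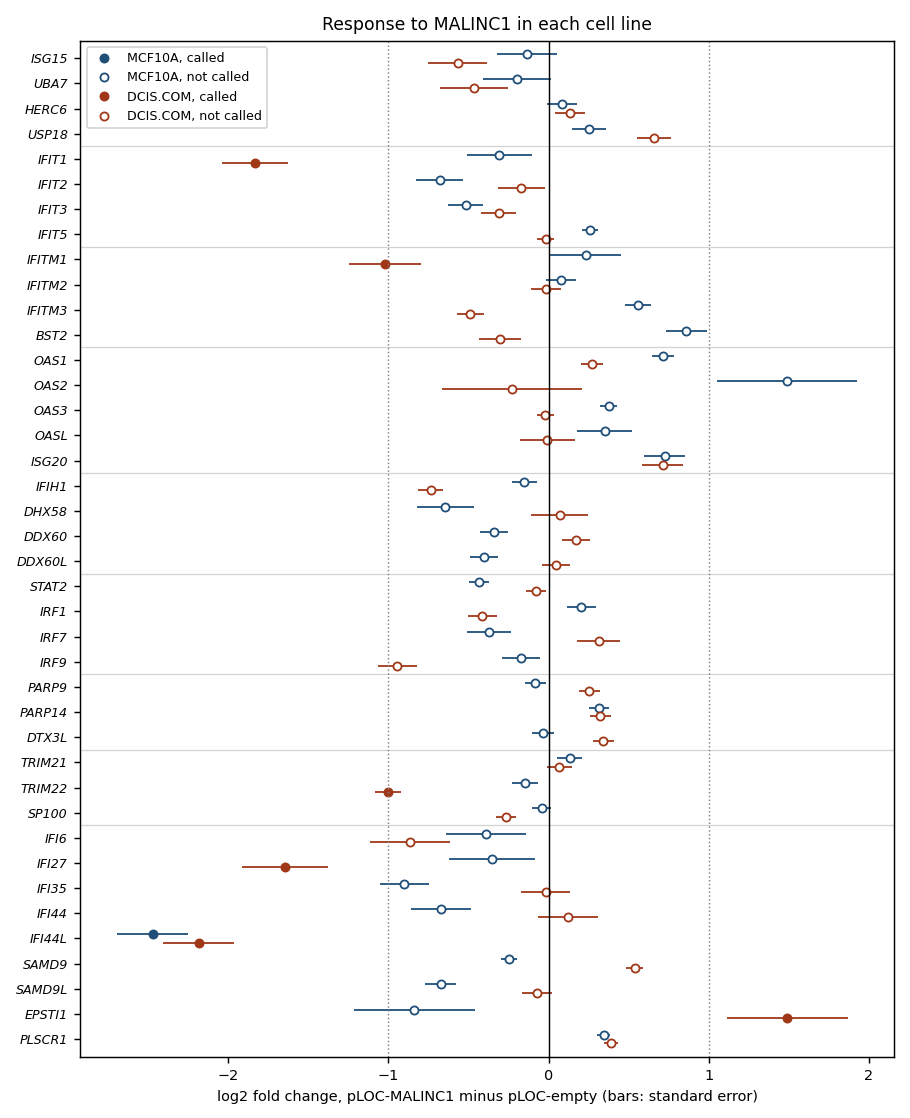
Log2 fold change of each of the 40 ISGs, pLOC-MALINC1 minus pLOC-empty, in MCF10A (blue) and DCIS.COM (red), with the standard error as a bar; genes are grouped by role from top to bottom, filled points are called, and dotted lines mark a 2-fold change. IFI44L lies beyond a 2-fold decrease in both lines, while IFIT1, IFI27, IFITM1 and TRIM22 do so in DCIS.COM, and the IFITM3 and BST2 points lie on opposite sides of 0 in the 2 lines.

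Which line a gene moved in differed from gene to gene. OAS1, ISG20, PARP14 and PLSCR1 rose in both lines and IFI44L fell in both. IFITM3 rose in MCF10A and fell in DCIS.COM, and SAMD9 fell in MCF10A and rose in DCIS.COM. IFIT5, BST2 and OAS3 rose, and IFIT2, IFIT3, DHX58, DDX60, DDX60L, STAT2, IFI35, IFI44 and SAMD9L fell, past the threshold in MCF10A but not in DCIS.COM. USP18, PARP9, DTX3L and EPSTI1 rose, and IFIT1, IFITM1, IFIH1, IRF1, IRF9, TRIM22, SP100 and IFI27 fell, past it in DCIS.COM but not in MCF10A. The remaining 9 ISGs (ISG15, UBA7, HERC6, IFITM2, OAS2, OASL, IRF7, TRIM21 and IFI6) passed in neither line. A gene past the threshold in 1 line is not thereby shown to differ between the lines, which is tested separately below.

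IFI44L, an interferon-induced cytoplasmic protein reported to act as a feedback regulator of the pathway, was the ISG with the largest decrease in either line. Its level was 7.0 and 6.16 CPM in the MCF10A libraries with pLOC-empty and 1.11 and 1.13 CPM in those with pLOC-MALINC1. In DCIS.COM it was 1.63 and 2.20 CPM with pLOC-empty and 0.437 and 0.296 CPM with pLOC-MALINC1. Both MALINC1 groups lay below the empty-vector group of their own line with no overlap. The fitted decrease was 5.55-fold in MCF10A (log2 fold change -2.47, SE 0.22, adjusted p = 1.69e-06) and 4.55-fold in DCIS.COM (-2.19, SE 0.22, adjusted p = 6.16e-06). The decreases in the 2 lines differed by 0.29 on the log2 scale (SE 0.31, adjusted p = 0.47), which is less than the error of that difference. The DCIS.COM values rest on few reads, 35 and 46 with pLOC-empty and 15 and 10 with pLOC-MALINC1.

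IFI44 lies next to IFI44L on the same strand of chromosome 1, with 3650 bases between them (GRCh37), and is its paralogue. It was at 2.52 and 2.92 CPM against 1.81 and 1.55 CPM in MCF10A, where it fell (-0.67, SE 0.19, adjusted p = 0.0094). In DCIS.COM it was at 3.41 and 4.77 CPM against 4.05 and 4.76 CPM, and the groups overlapped (0.12, SE 0.19, adjusted p = 0.633). The difference between the lines missed the threshold (0.79, adjusted p = 0.0257).

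**Figure D2:**
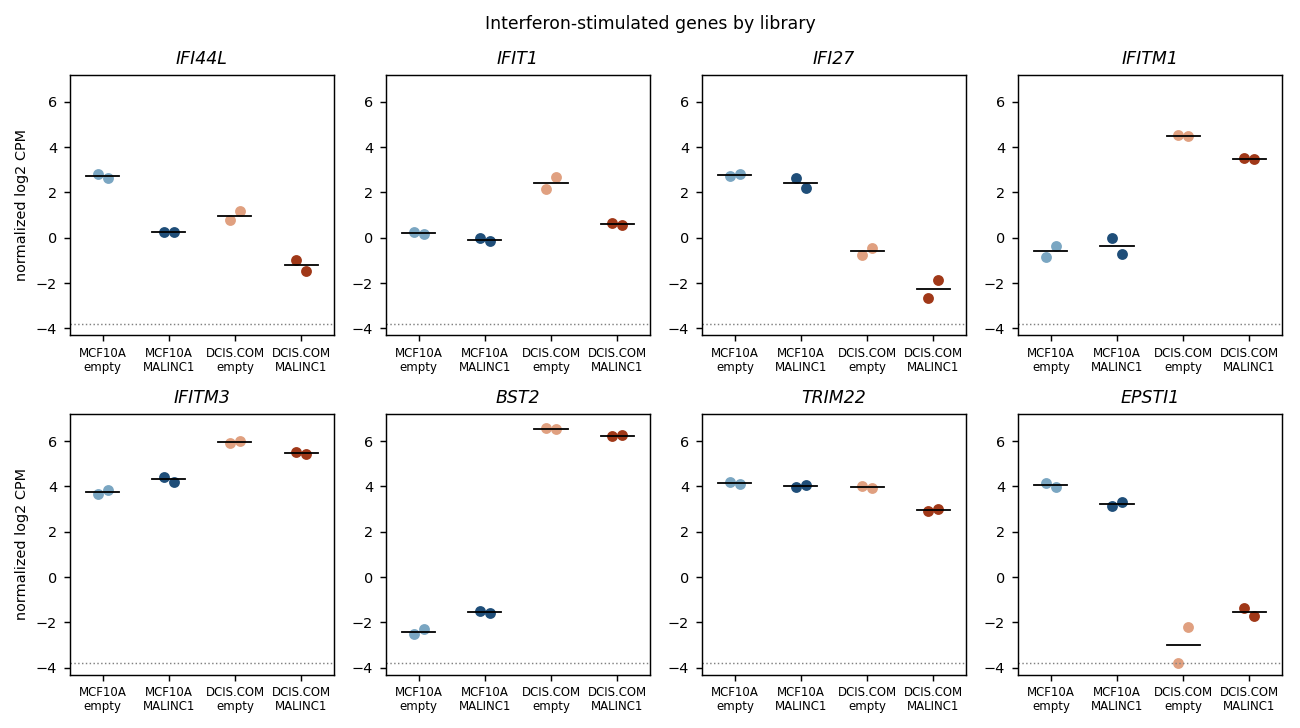
Normalized log2 CPM in each of the 8 libraries (points) with the group mean (black line) for 8 ISGs called in a vector comparison or in the difference between the lines; the dotted line marks a library with no read. IFI44L drops with MALINC1 in both lines, IFIT1, IFITM1, IFI27 and TRIM22 drop in DCIS.COM, and EPSTI1 in DCIS.COM and BST2 in MCF10A lie near the dotted line.

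The IFIT proteins bind foreign or incompletely capped viral RNA and hold back its translation, and the genes stand in a row on chromosome 10 in the order IFIT2, IFIT3, IFIT1 and IFIT5. IFIT1 was at 4.43 and 6.35 CPM in DCIS.COM with pLOC-empty and at 1.49 and 1.39 CPM with pLOC-MALINC1. In MCF10A it was at 1.14 and 1.06 CPM against 0.919 and 0.831 CPM. Both MALINC1 groups were the lower ones without overlap, by 3.57-fold in DCIS.COM (log2 fold change -1.83, SE 0.20, adjusted p = 1.44e-05) and by an amount that did not pass in MCF10A (-0.31, SE 0.20, adjusted p = 0.224). IFIT2 and IFIT3 fell in MCF10A (-0.68 and -0.52, adjusted p = 0.00198 and 0.00186) and missed the threshold in DCIS.COM (-0.17 and -0.31, adjusted p = 0.37 and 0.0356), but neither differed between the lines by the test of the difference (adjusted p = 0.0591 and 0.299). IFIT5 rose by 0.26 on the log2 scale in MCF10A (SE 0.050, adjusted p = 0.000998) and was within 28.8 to 29.6 CPM in all 4 DCIS.COM libraries. In MCF10A the row thus held genes that fell beside 1 that rose, and in DCIS.COM IFIT1 was the one that passed. Exons of IFIT2 and IFIT3 share 65 and 94 bases with LIPA on the opposite strand, and 7.42% of the 76-base words of IFIT2 occur in another annotated gene.

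The IFITM proteins sit in membranes and block the fusion of entering viruses, and BST2 (tetherin) holds budding virions at the cell surface. IFITM1 was at 22.8 and 22.4 CPM in DCIS.COM with pLOC-empty and at 11.2 and 10.97 CPM with pLOC-MALINC1. In MCF10A it was at 0.483 and 0.708 CPM against 0.919 and 0.529 CPM, and those groups overlapped. The DCIS.COM groups were apart by 2.03-fold, just past the 2-fold limit (-1.02, SE 0.22, adjusted p = 0.00265), and the call was lost when any 1 of the 4 DCIS.COM libraries was left out (-1.04 to -1.0).

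IFITM3 was at 60.8 and 64.5 CPM against 46.1 and 43.0 CPM in DCIS.COM, and at 12.6 and 14.4 CPM against 21.5 and 18.3 CPM in MCF10A. MALINC1 went with lower IFITM3 in DCIS.COM (-0.49, SE 0.083, adjusted p = 0.000414) and with higher IFITM3 in MCF10A (0.56, SE 0.083, adjusted p = 0.000127), without overlap in either line. IFITM2, which lies beside IFITM1 on chromosome 11, stayed between 7.0 and 7.97 CPM in MCF10A and between 13.2 and 14.5 CPM in DCIS.COM, and its groups overlapped in both lines. Of the 76-base words of IFITM1, IFITM2 and IFITM3, 22.9%, 14.1% and 11.1% also occur in another gene, so part of their reads may have been split or lost among copies.

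BST2 was at 95 and 91.2 CPM in DCIS.COM with pLOC-empty and at 74.7 and 76.0 CPM with pLOC-MALINC1, groups that did not overlap but whose difference missed the threshold (-0.30, SE 0.13, adjusted p = 0.0717). In MCF10A it was nearly silent. Each pLOC-empty library held 3 reads, or 0.103 and 0.133 CPM, and the pLOC-MALINC1 libraries were at 0.279 and 0.264 CPM, with 17 reads together. The model gave a rise of 0.86 (SE 0.13, adjusted p = 0.000134), whereas the ratio of the pooled reads was 2.34 with an exact 95% counting interval from 0.882 to 7.26, which includes no change.

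The 2'-5' oligoadenylate synthetases make the messenger that switches on RNase L, and ISG20 is an exonuclease of single-stranded RNA. All 5 members of this group had positive log2 fold changes in MCF10A, as had 6912 of the 13842 genes. Of the 5, 3 rose there, beside 21.5% of all genes. In DCIS.COM 2 of the 5 log2 fold changes were positive and 3 negative. OAS1 was at 18.8 and 17.5 CPM against 29.6 and 29.8 CPM in MCF10A (0.71, SE 0.068, adjusted p = 3.08e-06) and at 17.2 and 19.1 CPM against 22.0 and 21.7 CPM in DCIS.COM (0.27, SE 0.068, adjusted p = 0.00626). Its MALINC1 libraries were the higher ones in both lines without overlap. ISG20 was at 6.48 and 8.81 CPM against 13.6 and 11.6 CPM in MCF10A and at 14.6 and 14.9 CPM against 23.0 and 25.5 CPM in DCIS.COM, and rose by 0.73 and 0.71. OAS3 rose in MCF10A (0.37, adjusted p = 6.78e-05) and stayed between 45.2 and 48.9 CPM in DCIS.COM with overlapping groups.

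OAS2 was at the limit of detection in MCF10A, with 1 and 0 reads in the pLOC-empty libraries and 12 and 2 reads in those with pLOC-MALINC1. The pooled ratio was 11.6 with a counting interval from 1.76 to 489.7, and the model's adjusted p of 0.0125 did not pass, although OAS2 was called without replicate 2 of MCF10A MALINC1 (log2 fold change 2.22). In DCIS.COM it was at 1.26 and 2.20 CPM against 1.37 and 1.45 CPM, with overlap. OASL, which lacks the synthetase activity of its relatives, did not pass in either line (0.35 in MCF10A, -0.0083 in DCIS.COM).

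Among the RNA sensors and helicases, IFIH1 (MDA5), a receptor for long double-stranded RNA, was at 18.4 and 18.6 CPM in DCIS.COM with pLOC-empty and at 10.4 and 11.8 CPM with pLOC-MALINC1. The groups were apart and it fell there (-0.74, SE 0.079, adjusted p = 1.08e-05), while MCF10A gave -0.15 (adjusted p = 0.128). DHX58 (LGP2), which tunes signalling by IFIH1, and the helicase-like genes DDX60 and DDX60L fell in MCF10A, by 0.65, 0.34 and 0.40 on the log2 scale. In DCIS.COM those 3 gave 0.07, 0.17 and 0.05, and none of them passed. All 4 log2 fold changes of the group were negative in MCF10A, as were those of 6930 of the 13842 genes. In DCIS.COM 3 of the 4 were positive and 1 was negative.

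Of the transcription factors, STAT2 fell in MCF10A, from 41.5 and 45.7 CPM to 33.7 and 30.6 CPM (-0.44, SE 0.063, adjusted p = 0.000107). In DCIS.COM STAT2 was at 25 and 25.3 CPM against 24.0 and 23.6 CPM (-0.08, adjusted p = 0.341). Its partner in ISGF3, IRF9, was at 7.74 and 8.64 CPM in DCIS.COM with pLOC-empty and at 4.49 and 3.96 CPM with pLOC-MALINC1, and fell there (-0.94, SE 0.12, adjusted p = 4.83e-05), but gave -0.17 in MCF10A (adjusted p = 0.254). Of the 76-base words of IRF9, 17.1% are shared with another annotated gene. IRF1, which activates ISGs and genes of antigen presentation, fell in DCIS.COM (-0.42, adjusted p = 0.00257), and IRF7, which drives interferon alpha genes, passed in neither line (-0.37 and 0.31, adjusted p = 0.0365 and 0.0797).

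ISG15 is a ubiquitin-like protein, UBA7 its activating enzyme, HERC6 a HERC-family ligase and USP18 the protease that removes ISG15 and damps the interferon receptor. Of these 4, USP18 rose in DCIS.COM, from 8.68 and 8.12 CPM to 12.5 and 14.2 CPM (0.66, SE 0.11, adjusted p = 0.0003), and gave 0.25 in MCF10A (adjusted p = 0.0646). ISG15 was at 3.08 and 4.30 CPM against 2.56 and 2.31 CPM in DCIS.COM (-0.57, SE 0.18, adjusted p = 0.0243) and overlapped in MCF10A. Neither UBA7 nor HERC6 passed in either line. Of the 76-base words of USP18, 9.02% occur in another gene, nearly all in USP41.

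PARP9, PARP14 and DTX3L form a group of ADP-ribosyltransferases and a ubiquitin ligase that act in interferon signalling. All 3 rose in DCIS.COM, as did 16.4% of all genes. PARP14 was at 80.2 and 85.4 CPM against 99.0 and 108.3 CPM there, and at 12.2 and 13.6 CPM against 16.3 and 15.9 CPM in MCF10A, with log2 fold changes of 0.32 in both lines. PARP9 and DTX3L rose by 0.25 and 0.34 in DCIS.COM and had overlapping groups in MCF10A. These divergent neighbours on chromosome 3 overlap by 240 bases, 139 of them exonic, and without strand their shared reads cannot be told apart.

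Of TRIM21, TRIM22 and SP100, intracellular restriction factors that include a nuclear body component (SP100), TRIM22 was called in DCIS.COM. It was at 15.9 and 15.3 CPM with pLOC-empty and at 7.52 and 7.95 CPM with pLOC-MALINC1, without overlap, a 2.01-fold decrease (-1.01, SE 0.081, adjusted p = 8.95e-07). The change sat at the 2-fold limit, and the call was lost without replicate 1 of either DCIS.COM group (-1.05 to -0.96 over all libraries left out in turn). In MCF10A TRIM22 was at 18.4 and 17.1 CPM against 15.4 and 16.7 CPM (-0.15, adjusted p = 0.148). SP100 fell slightly in DCIS.COM (-0.27, adjusted p = 0.00313) and TRIM21 passed in neither line.

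IFI27, a small mitochondrial and nuclear-envelope protein widely used in interferon signatures, was at 0.513 and 0.668 CPM in DCIS.COM with pLOC-empty and at 0.0874 and 0.207 CPM with pLOC-MALINC1. That is 11 and 14 reads against 3 and 7, the groups did not overlap, and the fitted decrease was 3.13-fold (-1.65, SE 0.27, adjusted p = 0.000329). In MCF10A it was more abundant, at 6.52 and 7.04 CPM against 6.16 and 4.53 CPM, and did not pass (-0.35, adjusted p = 0.291). The call in DCIS.COM was lost when that line was fitted alone or when 0.5 CPM or more was added before taking logs. IFI6, of the same family, was also lower in DCIS.COM with MALINC1, at 3.59 and 4.77 CPM against 1.86 and 2.69 CPM, but missed the threshold (-0.87, SE 0.25, adjusted p = 0.0137).

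EPSTI1, an interferon-induced gene first described in epithelial cells cultured with stromal cells, was lower with MALINC1 in MCF10A and higher with it in DCIS.COM. In MCF10A it was at 17.7 and 15.7 CPM with pLOC-empty and at 8.78 and 9.82 CPM with pLOC-MALINC1. In DCIS.COM it was almost silent, with 0 and 3 reads against 11 and 8 reads, or 0 and 0.143 CPM against 0.320 and 0.237 CPM. Neither pair of groups overlapped. The pooled ratio in DCIS.COM was 3.94 with a counting interval from 1.16 to 20.8, the model's value was 1.49 (SE 0.38, adjusted p = 0.00657), and the call was lost in 13 of 21 alternatives, among them leaving out any library but replicate 2 of DCIS.COM empty (0.69 to 2.28). In MCF10A the log2 fold change was -0.84 with the same SE of 0.38 and an adjusted p of 0.0813. The model takes 1 variance per gene over all 4 groups, so the spread among the near-empty DCIS.COM libraries entered that error. Fitted alone, MCF10A gave an adjusted p of 0.00698, and over all 21 alternatives it ranged from 1.71e-06 to 1.

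IFI35, SAMD9, SAMD9L and PLSCR1 were the other effectors measured. IFI35, a STAT-induced adaptor, fell in MCF10A from 5.28 and 4.52 CPM to 2.17 and 3.06 CPM (-0.90, SE 0.15, adjusted p = 0.000353) and gave -0.02 in DCIS.COM. SAMD9 and SAMD9L, neighbouring genes on chromosome 7 for antiviral and growth-restraining proteins, both fell in MCF10A, by 0.25 and 0.67 on the log2 scale. In DCIS.COM SAMD9 instead rose, from 44.2 and 47.4 CPM to 64.6 and 68.3 CPM (0.54, SE 0.052, adjusted p = 4.52e-06), while SAMD9L gave -0.07 (adjusted p = 0.554). PLSCR1, a membrane and nuclear antiviral protein, rose by 0.34 in MCF10A and 0.39 in DCIS.COM (adjusted p = 3.39e-05 and 1.46e-05).

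**Figure D3:**
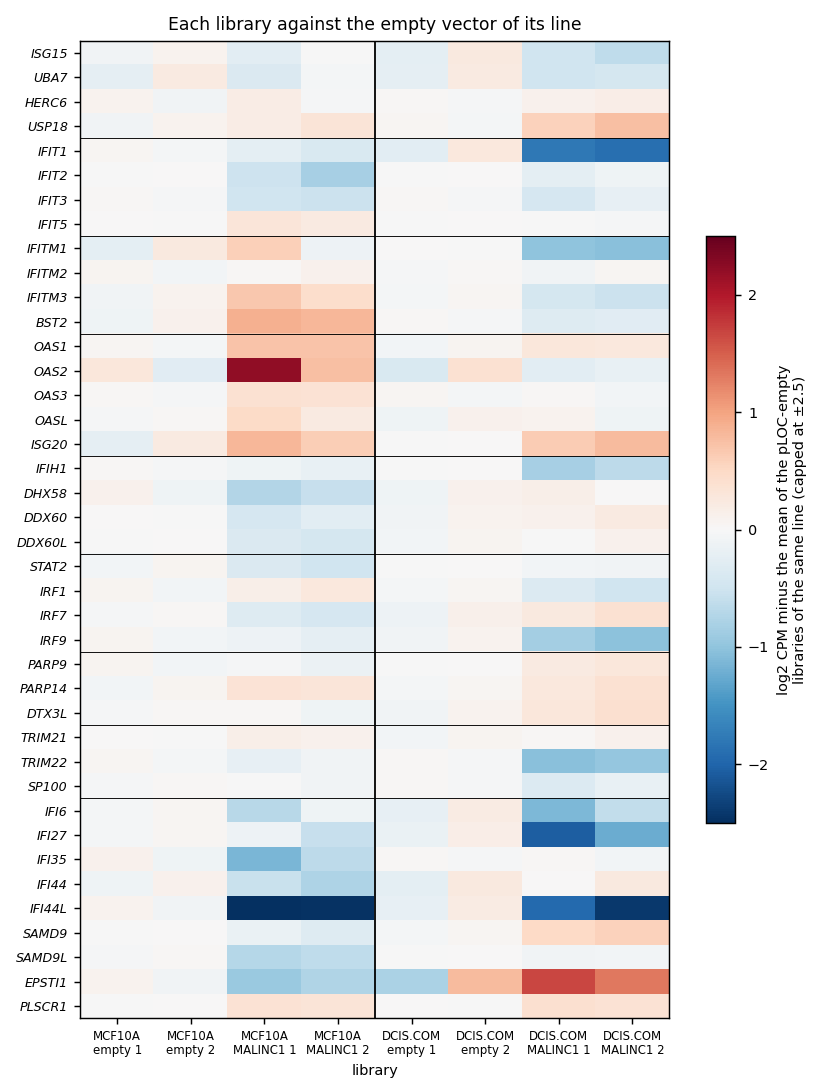
Log2 CPM of the 40 ISGs in each library minus the mean of the pLOC-empty libraries of the same line (red higher, blue lower, capped at ±2.5), with lines between roles. Replicates of a MALINC1 group share their colour for most genes, IFI44L is blue in all 4 MALINC1 libraries, and the RNA sensors and IFIT2, IFIT3 are blue in MCF10A while IFIT1, IFIH1 and IRF9 are the bluest of their groups in DCIS.COM.

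Whether the response to MALINC1 differed between the lines was tested as the difference of the 2 log2 fold changes, DCIS.COM minus MCF10A. By this test 1 ISG was called higher (EPSTI1) and 4 were called lower (IFIT1, IFITM1, IFITM3 and BST2), where 3.98% and 5.22% of all genes were called. IFITM3 had a difference of -1.05 (SE 0.12, adjusted p = 1.36e-05), being higher with MALINC1 in 2 of 2 MCF10A libraries and lower in 2 of 2 DCIS.COM libraries than in every empty-vector library of the same line. IFIT1 differed by -1.53 (SE 0.29, adjusted p = 0.000888) and IFITM1 by -1.25 (SE 0.32, adjusted p = 0.006). BST2 differed by -1.16 (SE 0.18, adjusted p = 0.000212) and EPSTI1 by 2.33 (SE 0.54, adjusted p = 0.00331), both against a group in which no library exceeded 3 reads. Of the 4 lower genes 3 belong to the IFITM and tetherin group, whose other member, IFITM2, gave -0.09 (adjusted p = 0.592). With 1 library left out at a time, IFITM3 lost its call without replicate 1 of either MCF10A group or replicate 2 of DCIS.COM MALINC1 (-1.16 to -0.93), IFITM1 without any DCIS.COM library or replicate 1 of either MCF10A group (-1.61 to -0.89), and EPSTI1 without any MCF10A library or replicate 1 of DCIS.COM MALINC1 (1.53 to 3.12). IFI27 was not called (-1.29, adjusted p = 0.0141), except without replicate 2 of DCIS.COM MALINC1 (-1.70). At any fold, 9 ISGs passed as higher and 11 as lower, where 2162 and 2810 of the 13842 genes did. Those higher by under 2-fold were SAMD9 (0.79, adjusted p = 3.06e-06), IFI35, SAMD9L, DDX60, DDX60L, STAT2, PARP9 and DTX3L. Those lower by under 2-fold were TRIM22 (-0.86, adjusted p = 6.07e-05), IRF9, IRF1, IFIH1, OAS1, OAS3 and IFIT5.

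More ISGs were called between the lines than between the vectors, and the same held for all genes. With pLOC-empty, 12 ISGs were called higher in DCIS.COM than in MCF10A and 8 were called lower, 30% and 20% of them against 15.6% and 13.0% of all genes. With pLOC-MALINC1, 13 were called higher and 9 lower, against 14.4% and 12.2% of all genes. The median log2 difference over the 40 ISGs was 0.31 with pLOC-empty and 0.13 with pLOC-MALINC1, beside 0.03 and 0.01 over all genes. These comparisons use the same libraries as the vector comparisons and are not independent of them, and the media differ between the lines.

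BST2 was the ISG furthest above its MCF10A level, 3 and 3 reads in MCF10A against 95 and 91.2 CPM in DCIS.COM, a pooled ratio of 800.5 with a counting interval from 367.5 to 2183. OAS2 had a ratio of 88.8, with an interval from 15.5 to 3556 because MCF10A held 1 read in all. IFITM1 was higher in DCIS.COM by 5.11 on the log2 scale (SE 0.22, adjusted p = 2.9e-10), IFITM3 by 2.21 (SE 0.083) and PARP14 by 2.67 (SE 0.064). UBA7 was at 0.862 and 1.20 CPM in MCF10A and at 4.34 and 5.87 CPM in DCIS.COM, a log2 difference of 2.24 (SE 0.21, adjusted p = 6.34e-07). Also called higher in DCIS.COM with pLOC-empty were IFIT1, IFIT2, DHX58, IRF7, IFI6 and IFI35.

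EPSTI1 was the ISG furthest below its MCF10A level, with 3 reads in the 2 DCIS.COM libraries against 867 in MCF10A, a 237.5-fold ratio in favour of MCF10A with an interval from 80.99 to 1154. IFI27 was lower in DCIS.COM by a log2 difference of -3.38 (SE 0.27, adjusted p = 1.08e-07). OASL was at 6.59 and 6.95 CPM in MCF10A and at 0.653 and 0.764 CPM in DCIS.COM (-3.14, SE 0.17, adjusted p = 2.53e-09). DDX60L was at 32.4 and 32.6 CPM against 4.48 and 4.92 CPM (-2.77, SE 0.088), SAMD9 at 305.3 and 308.5 CPM against 44.2 and 47.4 CPM (-2.74, SE 0.052), and SAMD9L at 16.97 and 17.5 CPM against 4.85 and 4.92 CPM (-1.81, SE 0.094). None of these groups overlapped, but the genes were picked for the largest differences, so this is no further evidence. IFI44L and SP100 were the other ISGs called lower.

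Close relatives were not all alike. OAS2 was called higher in DCIS.COM and OASL lower, OAS1 did not differ beyond its error (0.0012, SE 0.068), and DDX60 differed by -0.53 where its neighbour DDX60L differed by -2.77. ISG15, one of the ISGs with the strongest response to added interferon, had overlapping groups (0.31, SE 0.18, adjusted p = 0.14).

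**Figure D4:**
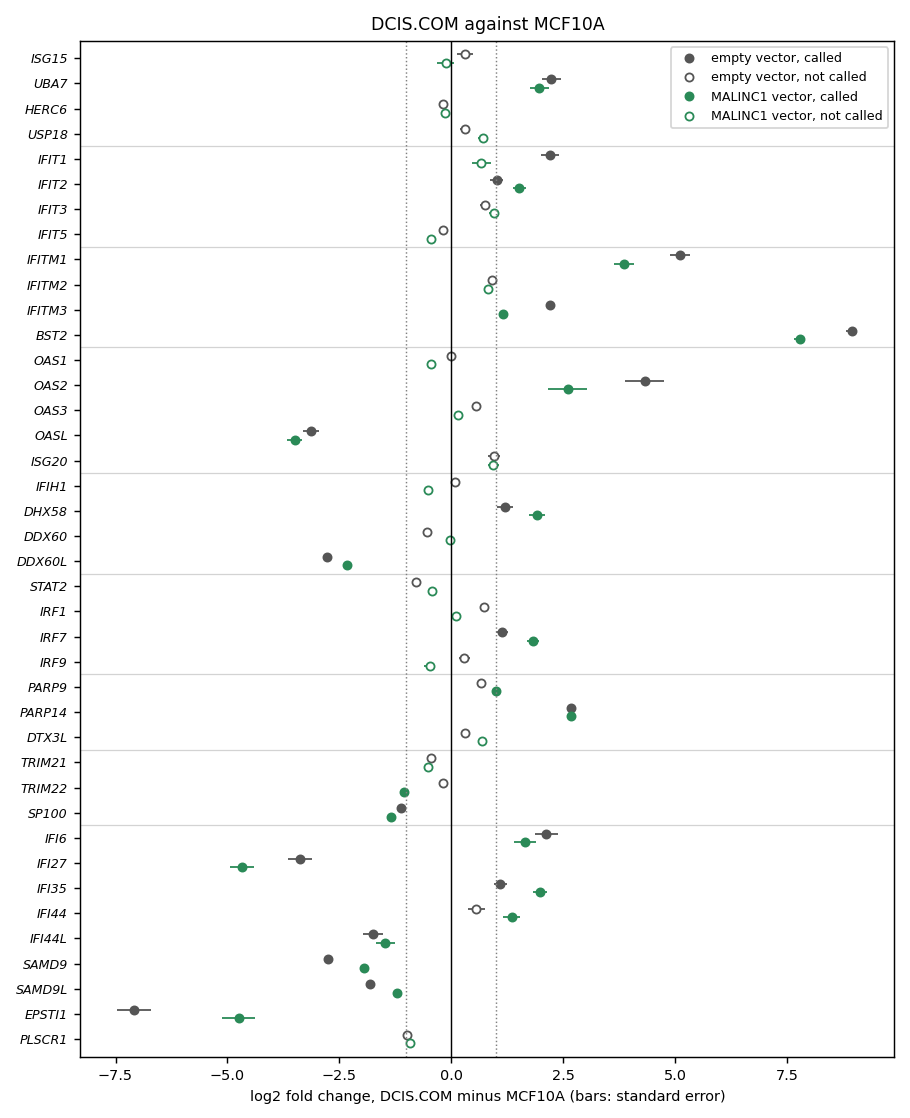
Log2 fold change of each of the 40 ISGs, DCIS.COM minus MCF10A, with pLOC-empty (grey) and with pLOC-MALINC1 (green), with the standard error as a bar; filled points are called and dotted lines mark a 2-fold change. BST2 lies farthest to the right and EPSTI1 farthest to the left under both vectors, and IFIT1 is called with pLOC-empty and not with pLOC-MALINC1.

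Calls in the pathway upstream are read against the 2.99% of all genes called higher and 2.51% called lower in MCF10A, and the 1.44% and 3.08% in DCIS.COM. Of 11 interferon ligand genes looked for, 0 have a row in the table, so no ligand level is given. Of the 6 receptor subunits, 0 were called in either line. IFNAR1, which with IFNAR2 binds type I interferons, was at 68.8 and 71.9 CPM against 66.1 and 57.5 CPM in MCF10A (-0.19, adjusted p = 0.0311) and at 38.1 and 41.6 CPM against 31.7 and 33.7 CPM in DCIS.COM (-0.28, adjusted p = 0.00406). IFNAR2 fell in DCIS.COM (-0.48, adjusted p = 0.00238) and gave -0.05 in MCF10A. IFNGR2, a subunit of the interferon gamma receptor, went opposite ways in the lines, rising by 0.95 in MCF10A and falling by 0.70 in DCIS.COM on the log2 scale.

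Neither JAK1 nor TYK2, the kinases of the type I receptor, was called. Both fell in MCF10A (-0.27 and -0.29, adjusted p = 0.000274 and 0.000156) and did not pass in DCIS.COM (-0.03 and 0.09). Of the 11 negative regulators measured, CISH was called higher in MCF10A (1.62, adjusted p = 9.64e-06) and SOCS3, an inhibitor of cytokine receptors, was called lower in DCIS.COM (-1.73, adjusted p = 5.32e-06), where in MCF10A it rose by 0.94. None of the 14 genes of nucleic acid sensing was called. DDX58 (RIG-I) rose in MCF10A (0.83, adjusted p = 1.66e-06) and fell in DCIS.COM (-0.54, adjusted p = 7.89e-05).

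Of 72 further ISGs measured from a second list of 86, 2 were called higher and 4 lower in MCF10A, and 0 higher and 8 lower in DCIS.COM, beside 2.99%, 2.51%, 1.44% and 3.08% of all genes. At any fold 19 rose and 15 fell in MCF10A, and 7 rose and 23 fell in DCIS.COM, beside 21.5%, 18.1%, 16.4% and 16.7% of all genes. The DCIS.COM decreases comprised GBP2, an interferon-induced GTPase (-1.30), SLFN5 (-1.18), the complement protease C1S (-2.74), the transcription factor STAT4 (-2.25), SECTM1 (-1.22), the Toll-like receptor chaperone UNC93B1 (-1.04), the receptor kinase AXL (-2.05) and SLFN11, which held 58 and 56 reads with pLOC-empty and 2 and 3 with pLOC-MALINC1. In MCF10A AXL rose (2.5, adjusted p = 2.08e-07), as did CD274, which codes for PD-L1 (1.07), while UBE2L6, the ISG15-conjugating enzyme (-1.05), GMPR (-1.37), STAT4 (-1.25) and PLAC8 (-1.10) fell. Among the 12 epithelial markers measured beside them, 9 rose and 1 fell in MCF10A and 4 rose and 3 fell in DCIS.COM, with TP63, the basal-cell transcription factor, rising by 3.04 on the log2 scale in MCF10A.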

How the data were processed

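Libraries from MCF10A and from DCIS.COM, carrying pLOC-empty or pLOC-MALINC1 (2 libraries a group) were analysed. Per the study's methods, RNA of integrity above 8 was made into ScriptSeq v2 libraries, read as 76 nt pairs on a HiSeq2000, aligned to hg19 with Rsubread and counted with featureCounts on UCSC genes. Versions, the strand setting and the filter on low counts are not given in the sources used here. The deposited values are log2 CPM per gene, which the authors normalized with edgeR. The smallest value, shared by genes with no read, gave the prior count of 2, and after its removal 100% of the values were whole reads (tolerance 0.05). Totals of 20604377 to 37550457 reads on genes limit the precision of low genes, and intervals cover counting error only.

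The log2 values of all 13842 genes were fitted with limma 3.58.1 (R 4.3.3; 4 groups, trended variances, prior degrees of freedom 7.98, residual 4), with Benjamini-Hochberg adjustment, two-sided. No covariate was used. A filter of 0.5 CPM in 2 libraries removed 0 genes. Of the genes, 346 had no symbol. Thresholds were the study's, an adjusted p below 0.01 and over 2-fold. Fold changes carry the prior count and so understate the change of low genes. Where no library of a group exceeded 3 reads, the ratio of pooled reads with an exact 95% interval (scipy 1.17.1) is given. The model was also run on simulated data, whose spread between replicates was set and not taken from these libraries. In each of the 4 groups, replicates differed by more than sampling noise (chi-square per degree of freedom 3.23 to 20.2).

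The ISGs and the other lists were chosen with earlier results of these data known. Per-library values are given for ISGs called in a vector comparison or in the difference between the lines, and for the 6 largest rises and falls between the lines with pLOC-empty. The other ISGs are given by counts or values, and those among them with per-library values were picked after their values were seen. IFNAR1, IFNAR2, JAK1 and TYK2 are always named, other pathway genes where called, except that some genes of these lists are not reported here. IFNGR2, DDX58, TP63, COL1A1 and PECAM1 were also named after their values were seen. Positions are GRCh37 (GENCODE v44lift37) and promoters RefSeq GRCh38.p14. The 21 alternatives covered scaling, filters, pseudocounts, models, thresholds, each line alone and each library left out. Figures were drawn with matplotlib 3.10.9 from tables made with Python 3.11.15, numpy 2.4.6 and pandas 2.3.3.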

Additional observations from a re-analysis of the deposited data

Results flagged for a closer look

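The response to MALINC1 differed between the lines for 5 ISGs by a test of the difference itself (limma, DCIS.COM response minus MCF10A response, over 2-fold). That is 2.5% of the 40 ISGs called higher and 10% called lower, beside 3.98% and 5.22% of all genes. Tested against a 1.5-fold change, 0 were called. The log2 difference was -1.53 for IFIT1 (adjusted p = 0.000888), -1.25 for IFITM1 (adjusted p = 0.006), -1.05 for IFITM3 (adjusted p = 1.36e-05), -1.16 for BST2 (adjusted p = 0.000212) and 2.33 for EPSTI1 (adjusted p = 0.00331). IFITM3 is the one of the 5 in which every MALINC1 library lay above its empty-vector group in MCF10A and below it in DCIS.COM with 325 to 1584 reads per library. BST2 and EPSTI1 rest on groups with at most 3 reads per library, in MCF10A and DCIS.COM respectively. No group has the 4 samples needed to look for a sample that stands apart.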

How the results depend on the processing

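The decreases of IFI44L in both lines and of IFIT1 in DCIS.COM were called under all 21 alternatives. IFITM1 lost its call in DCIS.COM under 9, TRIM22 under 5, IFI27 under 4 and EPSTI1 under 13. The differences between the lines had 20 alternatives, since a line fitted alone gives no difference. Among these, IFIT1 lost its call under 1, IFITM1 under 8, IFITM3 under 5, BST2 under 5 and EPSTI1 under 7. ISGs called lower in DCIS.COM numbered 3 with library sizes without the 20 most abundant genes, 2 with a pseudocount of 0.5 or 1 CPM and 3 when tested against a 1.5-fold change. ISGs called higher in DCIS.COM numbered 0 with either pseudocount, without trend, with voom on recovered reads, against 1.5-fold and with the line fitted alone. In MCF10A 1 was called higher at an adjusted p below 0.05. At any fold, fitting each line alone, which leaves fewer samples, gave 4 higher and 4 lower for MCF10A and 4 that were higher for DCIS.COM, and no trend gave 3 higher and 6 lower in DCIS.COM. Of the differences, 0 were called higher without trend, and 0 higher and 0 lower against 1.5-fold. Library sizes without the 20 most abundant genes shifted the median of all genes between the lines under pLOC-MALINC1 to 0.13 and that of the ISGs to 0.25. The cause of these changes was not tested. Leaving out 1 library at a time, the counts ranged from 0 to 1 called higher and 1 to 2 lower in MCF10A, from 0 to 1 higher in DCIS.COM, and from 0 to 2 higher and 2 to 5 lower in the differences. At any fold they ranged from 4 to 11 lower in MCF10A and from 3 to 8 higher and 6 to 10 lower in DCIS.COM, and the median between the lines with pLOC-empty from 0.28 to 0.45.

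Of the 200 values (40 ISGs in 5 comparisons), 23 changed sign in at least 1 alternative, and 0 of those 23 had passed an adjusted p of 0.01. Of them 15 lie in 13 ISGs outside the naming rule, such as the difference of ISG20, and the other 8 are as follows. The sign turned for OASL (0.16 with quantile normalization, 0.017 without the 20 most abundant genes) and SAMD9L (0.0066 with quantile normalization) in DCIS.COM, and the differences of IFI44L (-0.10 with quantile normalization) and PARP14 (-0.00024 with quantile normalization, -0.0048 with voom). Among these 8, with 1 library left out at a time, the sign also turned within the range of IFITM1 (-0.13 to 0.59) and UBA7 (-0.42 to 0.021) in MCF10A, of OAS2 (-0.62 to 0.15), OASL (-0.11 to 0.094) and DDX60L (-0.018 to 0.11) in DCIS.COM, and of the difference of PARP14 (-0.070 to 0.085).

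The replicate numbers were not found to pair the samples, since the deviations of same-numbered libraries correlated at -0.13 between the MCF10A groups and 0.12 between the DCIS.COM groups. With a replicate block, DCIS.COM had 1 ISG called higher and 5 called lower and MCF10A had 1 called lower, as without it, and at any fold 8 rose and 10 fell in MCF10A and 9 rose and 11 fell in DCIS.COM. Groups of 2 libraries, few reads for IFI44L, IFI27, EPSTI1, BST2 and OAS2, and reads shared among the IFITM genes limit what can be resolved.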
